A study of Homo sapiens with 9 samples.

Results

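H/ACA box small nucleolar RNAs and the small Cajal body RNAs were followed across 9 total RNA libraries of HuH-7 cells, a human hepatocellular carcinoma line. Members were the genes with a symbol that starts with SNORA and a digit, or with SCARNA, and with at least 10 raw counts summed over the 9 libraries. They were thus selected on a measured value, their summed raw counts, which the arsenic 5 µM library supplies in large part, so their level in it is given as a description. Of 63677 gene identifiers, 52526 had a symbol, 216 carried such a symbol and 92 reached the limit, 73 named SNORA and 19 named SCARNA. Another 33 of the 216 had 1 to 9 counts and 91 had none. Any RNA of the class counted under an identifier without a symbol is left out. SNORA73A, SCARNA2 and SCARNA15 were not found under their current identifiers. The members just inside the limit were SNORA63C with 17, SNORA30B with 18 and SNORA73 with 21 counts. SNORA69 with 9, and SNORA70B and SCARNA18B with 7 each, lay just outside it. The limit was reached by 91 of the 92 members without the arsenic 5 µM library too. The exception was SNORA30B, with 5 counts outside that library.

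Each library came from 1 culture: acetaminophen (10 mM) with exosomes, acetaminophen (10 mM) with caffeine (2 mM), acetaminophen alone (10 mM), exosomes alone, caffeine alone (2 mM), arsenic at 5 µM with copper at 5 µM, an untreated control, arsenic at 5 µM and arsenic at 15 µM. Exosomes came from 1 ml of serum. All cultures were of the same line, and the labels name no further allele or agent. No condition was replicated. The additive tests therefore take as their spread how far the libraries depart from the sum of single effects, and ratios between 2 libraries carry a 95% interval that covers counting error alone.

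H/ACA RNAs fold into 2 hairpins joined by a hinge, the H box, and end in a short tail that holds the trinucleotide ACA. Bound to dyskerin (DKC1), NHP2, NOP10 and GAR1, each one pairs with a target RNA and directs the change of a chosen uridine to pseudouridine. Most SNORA RNAs guide ribosomal RNA in the nucleolus, while the SCARNA RNAs guide spliceosomal RNAs in the Cajal body, and some of these carry C and D boxes, the mark of the methylation guides, alone or together with an H/ACA part. In human cells nearly all of them are cut out of introns of a host gene. Here 90 of the 92 members lie inside a longer gene on the same strand in GENCODE 29, and 7 of these overlap an exon of such a gene.

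The sequences of the members on which the results turn are given as DNA letters from GENCODE 29, 5′ to 3′. In the H/ACA members, capitals mark the hinge candidate ANANNA that starts 50 to 90 bases before the end and lies nearest to 65 bases from it, and ACA followed by exactly 3 bases. Both were read on the RNA strand and may overlap other letters. SNORA80E and SNORA80B are relatives that share 77.4% of their positions. SNORA73B was the other abundant member, SNORA7B and SCARNA20 stood far above the control with arsenic at 5 µM, SNORA11 had the lowest p at arsenic 15 µM, and SNORA28 departed from the common pattern.
SNORA80E: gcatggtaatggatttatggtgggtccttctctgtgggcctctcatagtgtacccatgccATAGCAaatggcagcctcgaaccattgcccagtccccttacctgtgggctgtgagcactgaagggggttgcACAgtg
SNORA80B: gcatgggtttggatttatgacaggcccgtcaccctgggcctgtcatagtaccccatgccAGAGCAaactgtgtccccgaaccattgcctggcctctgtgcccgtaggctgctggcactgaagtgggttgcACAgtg
SNORA73B: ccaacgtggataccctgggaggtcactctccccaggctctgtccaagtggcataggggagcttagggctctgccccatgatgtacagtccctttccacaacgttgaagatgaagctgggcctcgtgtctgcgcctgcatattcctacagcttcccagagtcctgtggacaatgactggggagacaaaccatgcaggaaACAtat
SNORA7B: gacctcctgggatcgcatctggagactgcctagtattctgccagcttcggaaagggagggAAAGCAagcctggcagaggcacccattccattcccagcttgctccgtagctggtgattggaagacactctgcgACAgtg
SCARNA20: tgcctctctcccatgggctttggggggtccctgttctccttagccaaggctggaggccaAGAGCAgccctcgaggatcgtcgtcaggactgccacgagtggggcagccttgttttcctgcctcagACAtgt
SNORA11: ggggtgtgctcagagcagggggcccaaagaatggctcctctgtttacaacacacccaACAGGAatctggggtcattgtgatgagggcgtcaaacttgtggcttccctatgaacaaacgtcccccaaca
SNORA28: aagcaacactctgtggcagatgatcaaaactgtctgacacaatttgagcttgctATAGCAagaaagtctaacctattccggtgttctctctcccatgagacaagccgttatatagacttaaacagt
SNORA31 and SNORA31B come from the same host gene, TPT1, share 73.9% of their positions and lay on opposite sides of the control with arsenic at 5 µM.
SNORA31: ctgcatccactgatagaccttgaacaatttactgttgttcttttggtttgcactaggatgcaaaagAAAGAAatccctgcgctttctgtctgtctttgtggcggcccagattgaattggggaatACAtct
SNORA31B: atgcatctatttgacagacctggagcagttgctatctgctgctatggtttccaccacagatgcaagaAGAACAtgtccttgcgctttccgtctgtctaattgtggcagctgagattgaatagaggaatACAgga
SCARNA5 and SCARNA6 come from ATG16L1, share 64.9% of their positions and did the same. In these mixed RNAs capitals mark TGATGA, the letters of a C box, and TGAG. The latter are the letters of the CAB box that retains RNAs in Cajal bodies. The last TGAG of each RNA follows a c, so it also reads CTGA, the letters of a D box. Which marked TGAG acts as a CAB box was not tested.
SCARNA5: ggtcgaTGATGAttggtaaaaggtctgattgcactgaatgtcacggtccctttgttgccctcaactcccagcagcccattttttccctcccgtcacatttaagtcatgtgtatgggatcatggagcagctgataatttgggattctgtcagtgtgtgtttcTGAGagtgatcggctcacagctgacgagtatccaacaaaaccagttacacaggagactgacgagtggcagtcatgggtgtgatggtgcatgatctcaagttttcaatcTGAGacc
SCARNA6: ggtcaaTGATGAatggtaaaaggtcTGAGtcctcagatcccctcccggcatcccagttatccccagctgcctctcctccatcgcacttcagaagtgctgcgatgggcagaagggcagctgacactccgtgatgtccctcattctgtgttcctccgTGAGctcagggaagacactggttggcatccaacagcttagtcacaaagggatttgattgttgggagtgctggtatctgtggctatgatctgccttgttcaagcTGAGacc

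ACA followed by 3 bases at the annotated end was present in 53 of 73 SNORA members (72.6%), in 9 of 18 SCARNA members with a sequence (50%) and in 2 of 69 C/D snoRNAs (2.90%). The hinge letters in their window were held by 66 SNORA members (90.4%), 15 SCARNA members (83.3%) and 24 C/D snoRNAs (34.8%). In SNORA11 the annotated end stops right after the ACA letters, and in SNORA28 fewer than 3 bases follow them, so the tail is shorter there. TGATGA in the first 20 bases was held by 5 SCARNA members (27.8%), 1 SNORA member (1.37%) and 45 C/D snoRNAs (65.2%). TGAG anywhere in the sequence was held by 12 SCARNA members (66.7%), 29 SNORA members (39.7%) and 56 C/D snoRNAs (81.2%), so these 4 letters alone do not set SCARNA members apart. These are matches of letters in the annotated sequence.

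Depth on genes was lowest with acetaminophen and exosomes (658725 counts) and highest with caffeine (8227906 counts), and the control had 951816 counts. Reads that HTSeq set aside because they overlapped more than 1 gene made up 10.2% of reads in the arsenic 5 µM library and 9.25% in the acetaminophen library, against 3.36% in the control and 2.29% to 5.74% in the other 6. The 9 liver markers, ALB and AFP among them, were detected in every library with a summed level of 8709 to 28312 CPM (counts scaled to library size). The 10 markers of other cell types had a summed level of 18.4 to 65.6 CPM, with 4 to 7 of them at 0 in a library. Most of it was the collagen gene COL1A2, with 21 to 158 counts per library, and the endothelial gene VWF had 1 to 16. The platelet genes PPBP and PF4 and the endothelial gene PECAM1 had 0 counts in every library, and the globin genes HBB and HBA1 had at most 1 count in any. This list summed to 24.2 CPM with arsenic at 5 µM and 65.6 CPM in the control. Fewer cells of a kind and less RNA per cell cannot be told apart in such libraries.

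Members together took 1.47% of gene counts with acetaminophen and exosomes, 2.79% with acetaminophen and caffeine, 3.47% with acetaminophen, 1.68% with exosomes, 2.66% with caffeine, 2.65% with arsenic and copper, 1.89% in the control, 16.9% with arsenic at 5 µM and 1.41% with arsenic at 15 µM. The arsenic 5 µM library stood apart from the other 8, and the acetaminophen library came next. The exact 95% interval was 16.9% to 16.97% for the arsenic 5 µM library and 1.86% to 1.91% for the control. C/D snoRNAs, the methylation guides, were high in the same 2 libraries and took 19.1% of gene counts with arsenic at 5 µM, 8.20% with acetaminophen and 3.09% in the control. There were 0.885 member counts per C/D count with arsenic at 5 µM, 0.423 with acetaminophen and 0.61 in the control.

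**Figure D1:**
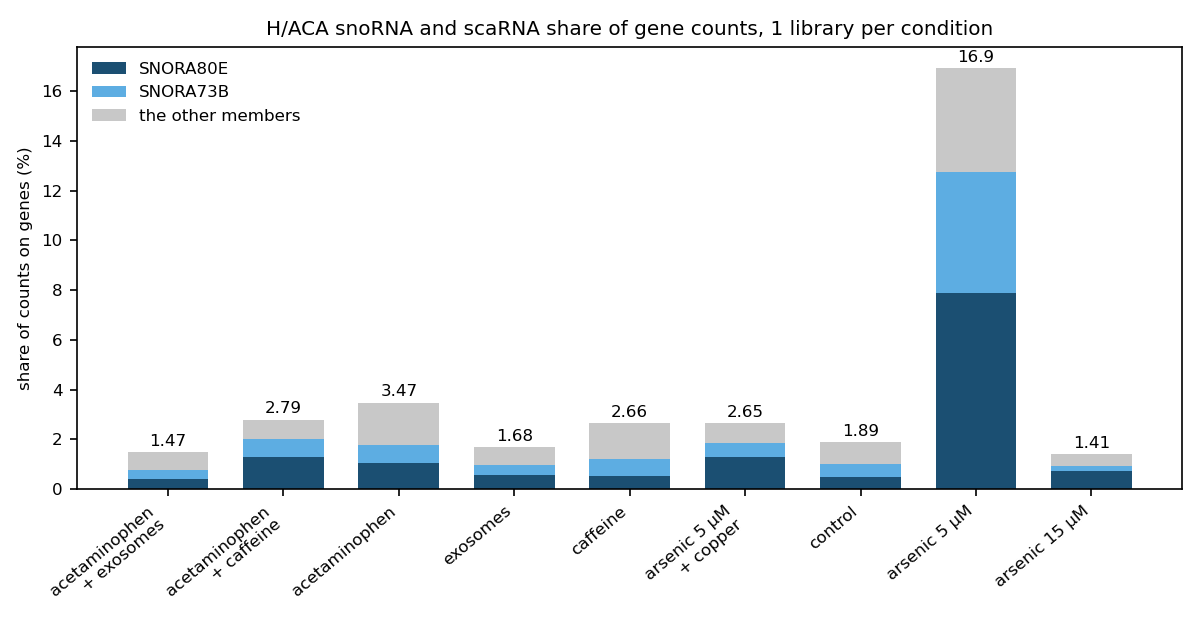
Share of gene counts (%) taken by the members in each of the 9 libraries, split into SNORA80E, SNORA73B and the other members. The arsenic 5 µM library stands at 16.9%, and the other 8 lie between 1.41% and 3.47%.

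SNORA80E (also ACA42, in an intron of KHDC4) and SNORA73B (also U17B, in an intron of SNHG3) supplied 46.0% to 75.3% of member counts. SNORA73A, which shares 93.2% of its positions with SNORA73B, was not found under its current identifier and is not analysed. Reads counted for SNORA73B may thus come from either. U17 is an unusual H/ACA RNA that acts in the cleavage of ribosomal RNA precursors. SNORA80E had 3216 CPM with acetaminophen and exosomes, 13308 with acetaminophen and caffeine, 9249 with acetaminophen, 5085 with exosomes, 5029 with caffeine, 12751 with arsenic and copper, 4463 in the control, 123194 with arsenic at 5 µM and 7813 with arsenic at 15 µM. It was above the control in every treated library but that of acetaminophen with exosomes, and the ratio of arsenic 5 µM to control was 27.6 (26.8 to 28.4). SNORA73B had 3007 CPM with acetaminophen and exosomes, 7383 with acetaminophen and caffeine, 6643 with acetaminophen, 3721 with exosomes, 6764 with caffeine, 5170 with arsenic and copper, 4790 in the control, 75829 with arsenic at 5 µM and 2147 with arsenic at 15 µM. Its arsenic 5 µM to control ratio was 15.8 (15.4 to 16.3) and its arsenic 15 µM to control ratio 0.448 (0.432 to 0.465), so it was lowest at the higher dose. Per 100 bases of RNA the mean level over libraries was 14932 CPM for SNORA80E, 6288 for SNORA73B and 1479 for SNORA7B, with SNORA65 next at 911. Without SNORA80E and SNORA73B the summed level of the members was still 8.11 times as high with arsenic at 5 µM as in the control.

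Arsenic at 5 µM gave the widest departure. Of the 91 members that passed the filter on low counts (at least 1 CPM in at least 2 libraries), 76 were at least 2-fold higher than in the control with an interval that excludes 1, where 16.4% of the 18237 genes tested were, and 6 were at least 2-fold lower, where 15.0% of genes were. The median log2 ratio was 2.74 over members, 2.45 over 68 C/D snoRNAs, 0.31 over 78 host genes and -0.23 over all genes tested. The medians over the SNORA and the SCARNA members were 2.75 and 2.74. Levels peaked in this library for 75 of the 92 members. In addition, 75 of 91 were at least 2-fold above the control, the arsenic 15 µM and the arsenic with copper libraries together, against 6.63% of all genes tested. SNORA30B, which reached the count limit only through this library, is among the 76 and among both counts of 75.

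SCARNA20, in an intron of USP32, had 5.09 CPM with acetaminophen and exosomes, 68.6 with acetaminophen and caffeine, 14.7 with acetaminophen, 12.5 with exosomes, 39.7 with caffeine, 119 with arsenic and copper, 13.5 in the control, 1358 with arsenic at 5 µM and 103 with arsenic at 15 µM. All 3 arsenic libraries were above all 6 libraries without arsenic. SNORA59B, in SLC47A1, had 10.2 CPM with acetaminophen and exosomes, 49.4 with acetaminophen and caffeine, 21.1 with acetaminophen, 12.2 with exosomes, 13.7 with caffeine, 63.8 with arsenic and copper, 12.5 in the control, 1186 with arsenic at 5 µM and 53.8 with arsenic at 15 µM. It likewise stood higher in the 3 arsenic libraries than in the other 6, with acetaminophen and caffeine the nearest. These were the 2 members that the arsenic term of the additive edgeR quasi-likelihood model called, with Benjamini-Hochberg adjustment over all genes, where 0.34% of genes were called higher and 0.154% lower. SCARNA20 rose by a log2 fold of 5.22 (SE 1.09, adjusted p = 0.0154) and SNORA59B by 5.17 (SE 1.13, adjusted p = 0.0216). The unadjusted edgeR p was under 0.05 for 19 members with higher levels, these 2 included, where it was for 5.82% of genes, and for 1 member with lower levels, where it was for 3.34%. The annotated SNORA59B spans 701 bases, far more than an H/ACA RNA, so its counts may hold other reads. Both calls were lost without the control, the acetaminophen or the acetaminophen with exosomes library, with an adjusted p of up to 0.687. Without arsenic 5 µM they were kept at smaller log2 folds of 2.98 for SCARNA20 and 2.28 for SNORA59B, and the arsenic term then called 3 of 90 members higher (3.0% of genes), a share near that of all genes, and 6 lower (1.3% of genes).

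Several abundant members shared the pattern. SNORA7B, in the pseudogene RPL32P3, had 191 CPM with acetaminophen and exosomes, 533 with acetaminophen and caffeine, 1016 with acetaminophen, 217 with exosomes, 569 with caffeine, 835 with arsenic and copper, 286 in the control, 14596 with arsenic at 5 µM and 259 with arsenic at 15 µM. Its arsenic 5 µM to control ratio was 51.1 (45.6 to 57.5), and its host stayed between 5.79 and 23.7 CPM throughout. The SNORA80 relatives were far above the control, and all but SNORA80C, which has no host on its own strand, lie in introns of different genes: SNORA80D by 67.6 times (32.7 to 168), SNORA80A by 26.9 times (18.3 to 41.3) and SNORA80B by 19 times (14.4 to 25.7). SNORA80C had 49 counts with arsenic at 5 µM and 0 in the control. The relatives share 76.6% to 78.8% of their positions with SNORA80E. SNORA80A and SNORA80B share 91.9% with each other and SNORA7B shares 98.6% with SNORA7A, which has 0 counts here. At 90% or more, reads may be hard to place between such copies.

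**Figure D2:**
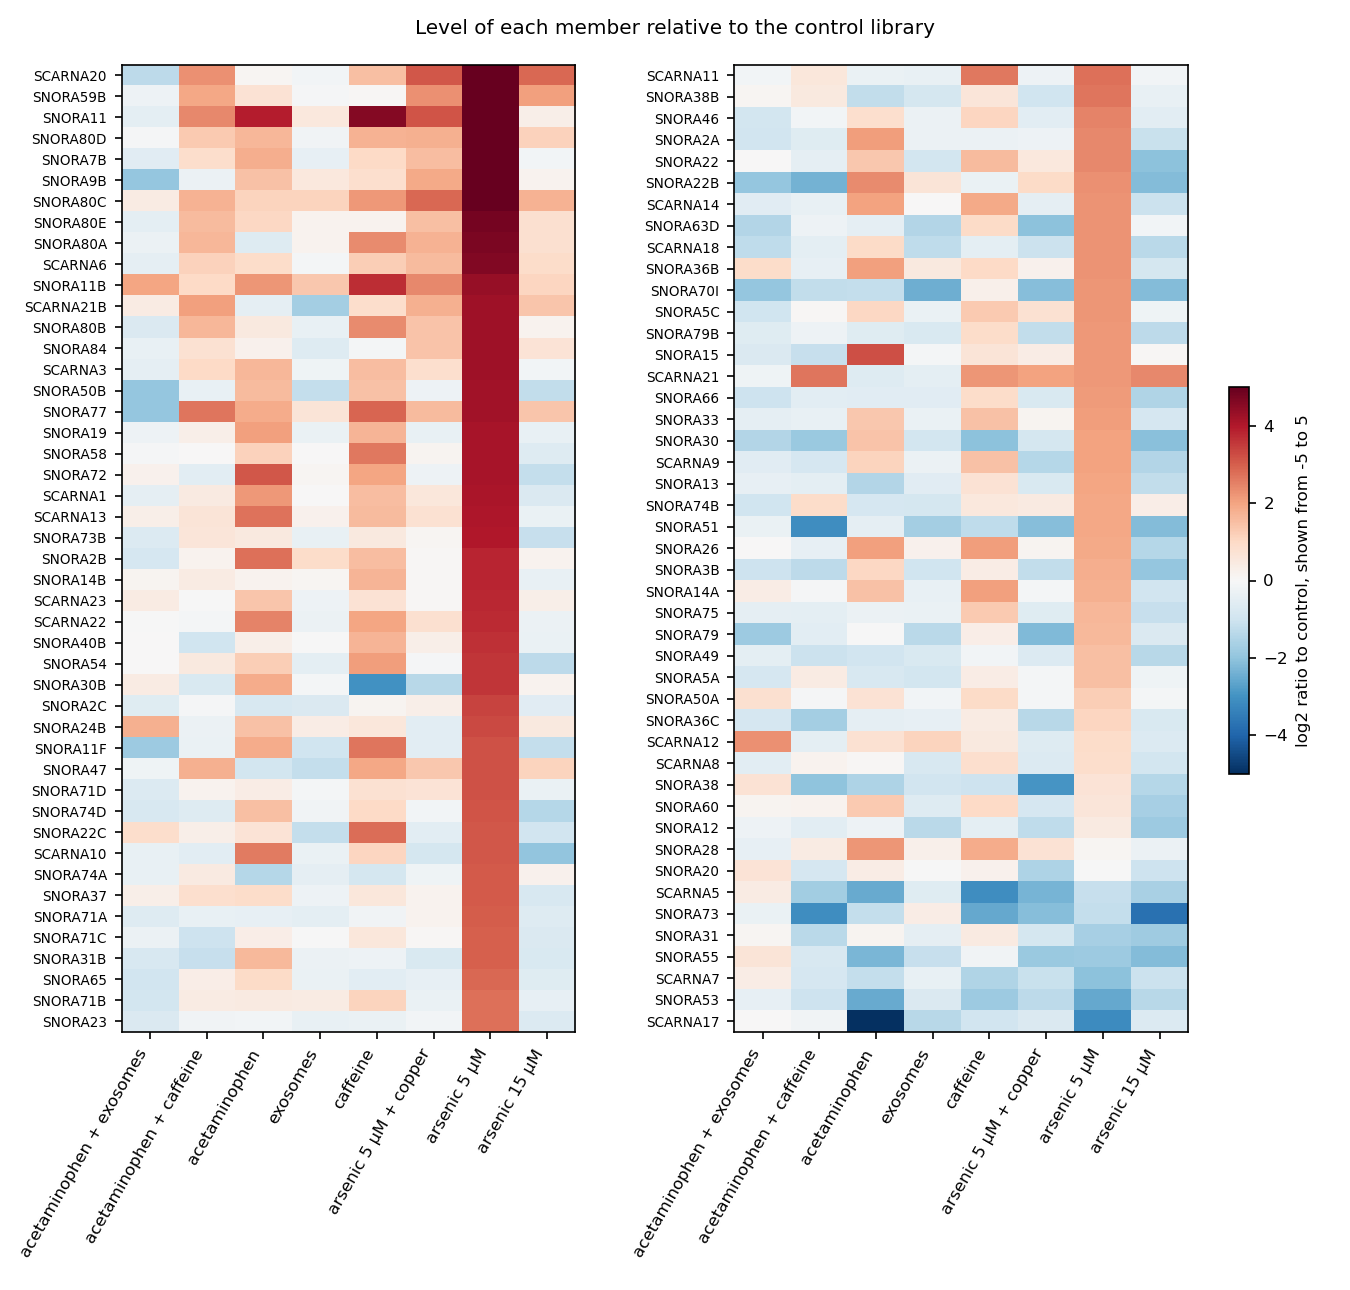
Log2 ratio of each of the 91 tested members (1 line each) in the 8 treated libraries (columns) to the control library, ordered by the arsenic 5 µM ratio. Red is higher and blue lower than the control, and most members are red with arsenic at 5 µM. At the end of the second panel, 6 are at least 2-fold lower with a counting interval that excludes 1. These are SCARNA17 to SCARNA5 apart from SNORA73, whose interval includes 1.

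Guides of spliceosomal RNA spanned the whole range. SCARNA10 (U85), the guide that directs both methylation and pseudouridylation of U5 RNA, had 90.3 CPM with acetaminophen and exosomes, 80.7 with acetaminophen and caffeine, 708 with acetaminophen, 92.0 with exosomes, 248 with caffeine, 63.4 with arsenic and copper, 117 in the control, 999 with arsenic at 5 µM and 29.8 with arsenic at 15 µM. The acetaminophen and arsenic 5 µM libraries were high and arsenic 15 µM was low. SCARNA13 was 16.7 times (12.6 to 22.6) and SCARNA9, a C/D guide, 4.05 times (2.70 to 6.33) as high with arsenic at 5 µM as in the control. SCARNA7 and SCARNA17, also C/D guides, ran the other way. SCARNA7 had 165 CPM with acetaminophen and exosomes, 70.7 with acetaminophen and caffeine, 55.5 with acetaminophen, 99.4 with exosomes, 45.3 with caffeine, 58.2 with arsenic and copper, 127 in the control, 30.6 with arsenic at 5 µM and 60.6 with arsenic at 15 µM. Its ratio of arsenic 5 µM to control was 0.24 (0.178 to 0.323), while its host KPNA4 had 156 CPM with arsenic at 5 µM and 29.9 CPM in the control. Among the 7 tested members with C/D or mixed boxes, 3 were higher and 3 lower with arsenic at 5 µM, and among the 82 with H/ACA boxes alone 71 were higher and 3 lower.

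Members that were lower with arsenic at 5 µM included SNORA53, SNORA55 and SNORA31. SNORA53, in SLC25A3, had 362 CPM with acetaminophen and exosomes, 234 with acetaminophen and caffeine, 82.1 with acetaminophen, 292 with exosomes, 134 with caffeine, 191 with arsenic and copper, 477 in the control, 81.2 with arsenic at 5 µM and 183 with arsenic at 15 µM. The control was highest, and the acetaminophen and arsenic 5 µM libraries were lowest, the 2 in which members took the largest shares of counts. SNORA55, in PABPC4, had 139 CPM with acetaminophen and exosomes, 51.3 with acetaminophen and caffeine, 18.2 with acetaminophen, 40.3 with exosomes, 79.7 with caffeine, 24.9 with arsenic and copper, 89.7 in the control, 25.1 with arsenic at 5 µM and 19.7 with arsenic at 15 µM. It was below the control in every treated library except that of acetaminophen with exosomes. Among all members, 7 overlap an exon of the host in GENCODE 29: SNORA53, SNORA31, SNORA31B, SNORA51, SNORA20, SCARNA12 and SCARNA17. With arsenic at 5 µM, 2 of these 7 were higher (SNORA31B and SNORA51) and 3 lower (SNORA53, SNORA31 and SCARNA17), with a median log2 ratio of -0.02. Of the 82 in introns clear of exons 72 were higher and 3 lower (median 2.82). Reads on a shared exon are set aside as ambiguous, and the part this plays was not tested.

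Pairs of members from 1 host differed in this contrast. SCARNA6 had 106 CPM with acetaminophen and exosomes, 320 with acetaminophen and caffeine, 274 with acetaminophen, 135 with exosomes, 343 with caffeine, 438 with arsenic and copper, 145 in the control, 3570 with arsenic at 5 µM and 278 with arsenic at 15 µM. SCARNA5, from the same ATG16L1 transcript unit, had 764 CPM with acetaminophen and exosomes, 174 with acetaminophen and caffeine, 99.0 with acetaminophen, 376 with exosomes, 66.5 with caffeine, 114 with arsenic and copper, 573 in the control, 255 with arsenic at 5 µM and 186 with arsenic at 15 µM. SCARNA6 was 24.7 times (21.0 to 29.2) as high with arsenic at 5 µM as in the control and SCARNA5 0.445 times (0.397 to 0.5), while ATG16L1 had 70.6 CPM with arsenic at 5 µM and 48.2 CPM in the control. In TPT1, SNORA31B was 7.91 times (6.91 to 9.09) and SNORA31 0.316 times (0.232 to 0.428) as high as in the control, while the host had 172 CPM with arsenic at 5 µM and 1312 CPM in the control. In the other hosts with several members, KANSL2, SNHG17, SNHG4, CNOT1, TBRG4 and CCT6A, every member was above the control, between 2.38 times for SNORA50A and 16.3 times for SNORA2B. Over 88 members whose host was among the counted identifiers, the member's log2 ratio exceeded the host's in 72. The median difference over all 88 was 2.86. Neither member nor host had to pass the filter on low counts here.

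**Figure D3:**
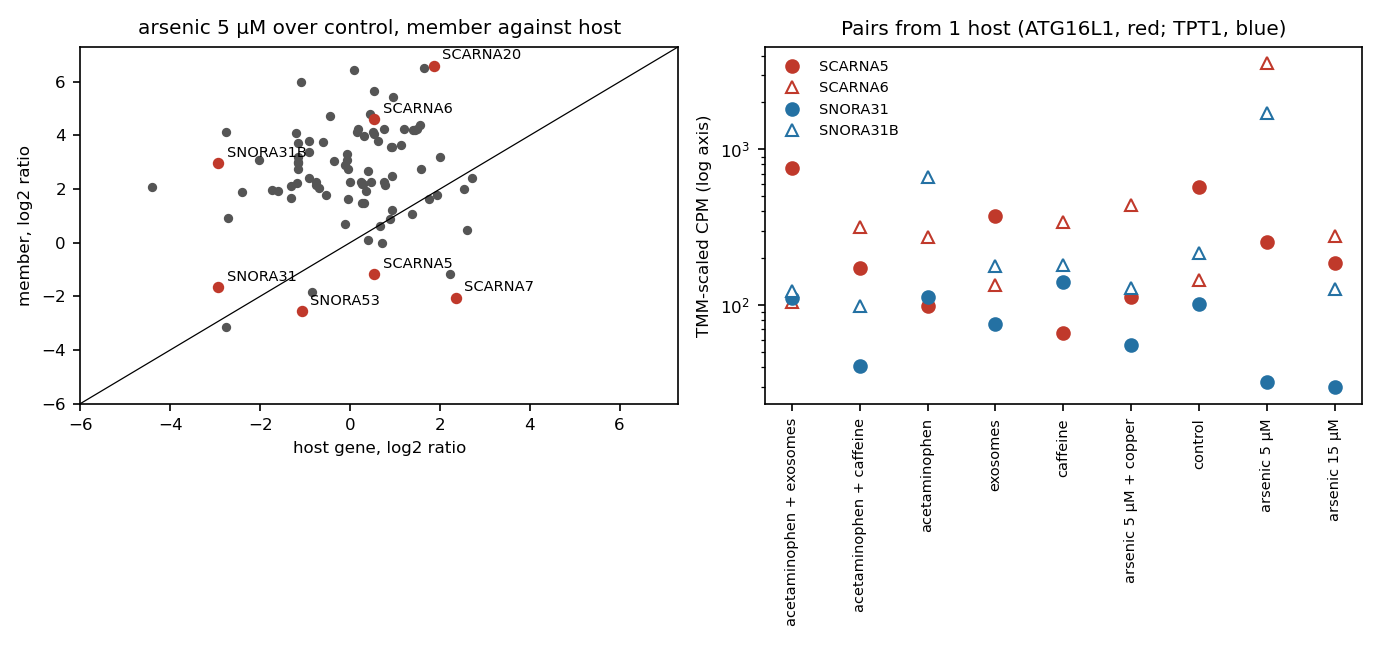
Left, log2 ratio of arsenic 5 µM to control for 88 members against that of the host gene, with the line of equal change; 72 members lie above it. Right, levels (TMM-scaled CPM, log axis) of SCARNA5 and SCARNA6 from ATG16L1 and SNORA31 and SNORA31B from TPT1 in the 9 libraries; SCARNA6 and SNORA31B peak with arsenic at 5 µM and their neighbours do not.

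The higher dose and the addition of copper lacked the arsenic 5 µM pattern. Against arsenic at 5 µM, arsenic at 15 µM had 2 members at least 2-fold higher (19.6% of genes tested) and 81 lower (17.5% of genes), with a median log2 ratio of -3.49 over members, -3.84 over C/D snoRNAs, 0.08 over hosts and -0.03 over all genes. Against the control, arsenic at 15 µM had 5 members higher (16.5% of genes) and 26 lower (14.4% of genes), with a median of -0.69 over members and -0.16 over all genes. Arsenic with copper had 2 members higher (16.5% of genes) and 82 lower (13.7% of genes) than arsenic at 5 µM, with a median of -2.95. Against the control it had 14 higher (9.26% of genes) and 12 lower (7.1% of genes), with a median of -0.14. SCARNA20 was the highest member by its interval in both comparisons with the control, at 7.65 times (4.48 to 14.2) with arsenic at 15 µM and 8.84 times (5.19 to 16.4) with arsenic and copper.

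An extra term for arsenic at 15 µM against the other arsenic libraries called 15 members, all lower, where edgeR called 0.795% of genes higher and 0.291% lower. SNORA11, in MAGED2, had 3.82 CPM with acetaminophen and exosomes, 33.2 with acetaminophen and caffeine, 95.5 with acetaminophen, 8.96 with exosomes, 149 with caffeine, 54.9 with arsenic and copper, 5.79 in the control, 550 with arsenic at 5 µM and 7.53 with arsenic at 15 µM. It fell by 5.32 on the log2 scale (SE 1.09, edgeR adjusted p = 0.000775). It was called under 12 of 13 alternatives, with an adjusted p of 1.69e-05 to 0.222 over them. The call was lost with the arsenic 5 µM library alone left out. The other 14 were SNORA72, SNORA50B, SNORA9B, SNORA80D, SCARNA1, SNORA58, SCARNA10, SNORA19, SNORA54, SNORA22, SNORA11F, SNORA59B, SNORA74D and SCARNA13, with log2 values of -4.57 to -3.53. These were less stable, each called under 4 to 9 of the 13 alternatives. Of the 91 members 63 had an unadjusted p under 0.05 in this term, all lower, where 4.69% of genes were lower and 5.43% higher at that p. The falls depended on the arsenic 5 µM library. With all 9 libraries the median log2 fold over members in this term was -2.75. With the arsenic 5 µM library alone left out it was -0.61, and 0 over all genes. Without arsenic with copper 51 members were called, all lower (2.52% of genes higher and 1.78% lower), and without exosomes 1 was, also lower (0.307% of genes higher and 0.0503% lower). The extra term for copper called 0 members by edgeR and by DESeq2 (0.0% of genes), with 0 members higher and 33 lower at an unadjusted edgeR p under 0.05 (1.02% of genes higher and 1.33% lower). Without the arsenic 15 µM library it called 8 members, all lower, where 0.18% of genes were called higher and 0.112% lower.

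Acetaminophen alone had members on both sides of the control. Against the control 33 members were at least 2-fold higher (13.0% of genes) and 8 lower (12.1% of genes), with a median log2 ratio of 0.76 over members, 1.66 over C/D snoRNAs, 0.21 over hosts and -0.20 over all genes. SNORA11 was highest by its interval at 16.5 times (7.38 to 45.7), SNORA26 was at 4.19 times (3.76 to 4.70) and SNORA28 at 4.61 times (4.03 to 5.30). SNORA28, in EIF5, had 174 CPM with acetaminophen and exosomes, 309 with acetaminophen and caffeine, 1082 with acetaminophen, 281 with exosomes, 852 with caffeine, 389 with arsenic and copper, 234 in the control, 254 with arsenic at 5 µM and 193 with arsenic at 15 µM. Its peak lay with acetaminophen and caffeine given singly, and at arsenic 5 µM it was 1.08 times the control (0.931 to 1.26). By interval bound SCARNA5 was lowest at 0.173 times the control (0.143 to 0.208), while the sparsely counted SCARNA17 had 0 counts with acetaminophen and 13 in the control.

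The other acetaminophen pairs had fewer members higher with the drug. With exosomes in both libraries, acetaminophen gave 4 members higher (5.22% of genes) and 1 lower (5.17% of genes), with a median of -0.02. With caffeine in both, it gave 4 higher (12.6% of genes) and 42 lower (13.0% of genes), with a median of -0.93 over members and -2.19 over C/D snoRNAs. By interval bound, SNORA59B was highest there at 3.61 times (2.89 to 4.52) and SNORA11F lowest at 0.124 times (0.0896 to 0.167). No member was at least 2-fold higher in all 3 acetaminophen pairs (0.554% of genes) or lower in all 3 (0.68% of genes). The acetaminophen term of the additive model called 0 members by edgeR and by DESeq2, where edgeR called 0.00548% of genes higher and 0.0165% lower. At an unadjusted edgeR p under 0.05 there were 0 members either way, against 2.34% of genes higher and 3.01% lower. The extra terms for acetaminophen by exosomes and acetaminophen by caffeine called 0 members by both tools (0.0% of genes). At an unadjusted edgeR p under 0.05 the term for acetaminophen by exosomes had 1 member higher (0.384% of genes) and 0 lower (0.0932% of genes). The term for acetaminophen by caffeine had 0 higher (0.587% of genes) and 13 lower (0.499% of genes) at that p.

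Caffeine alone gave 37 members at least 2-fold higher (11.6% of genes) and 4 lower (8.63% of genes) than the control, with a median log2 ratio of 0.94 over members, 1.80 over C/D snoRNAs and 0.03 over all genes. Added to acetaminophen it gave 13 higher (18.8% of genes) and 34 lower (15.0% of genes) than acetaminophen alone, with a median of -0.73. These 2 comparisons share no library. In both, SCARNA20, SCARNA21, SNORA47, SNORA80A and SNORA80B were at least 2-fold higher (5 of 91, against 3.59% of genes) and SNORA30 at least 2-fold lower (1 of 91, against 1.72% of genes), shares near those of all genes. SCARNA21, in CHD3, had 6.36 CPM with acetaminophen and exosomes, 51.8 with acetaminophen and caffeine, 4.91 with acetaminophen, 5.67 with exosomes, 37.9 with caffeine, 33.0 with arsenic and copper, 7.72 in the control, 36.2 with arsenic at 5 µM and 43.4 with arsenic at 15 µM. The 5 libraries with caffeine or arsenic lay above the 4 without either. Its caffeine log2 fold was 2.83 (SE 0.76, edgeR adjusted p = 0.167), the lowest p of any member in that term. edgeR and DESeq2 each called 0 members for caffeine, where edgeR called 0.0219% of genes higher and 0.0603% lower, and at an unadjusted edgeR p under 0.05 there were 5 higher (4.63% of genes) and 3 lower (2.68% of genes). Leaving out the arsenic 5 µM library, edgeR called 3 members for caffeine, SNORA80A and SCARNA21 higher (0.673% of genes) and SNORA30 lower (0.546% of genes).

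With exosomes alone, 0 members were at least 2-fold higher (3.58% of genes) and 7 lower (1.44% of genes) than in the control, with a median log2 ratio of -0.34. SNORA3B was lowest by its interval at 0.498 times the control (0.438 to 0.567). Added to acetaminophen, exosomes gave 9 members higher (10.2% of genes) and 42 lower (8.89% of genes) than acetaminophen alone, with a median of -1.06. By interval bound, SCARNA5 was highest at 7.72 times (6.42 to 9.35) and SNORA11 lowest at 0.0400 times (0.00814 to 0.119), the same RNAs that stood at the other end in acetaminophen over control, a comparison that shares the acetaminophen library. The exosome term called 0 members by edgeR and by DESeq2 (0.0% of genes), with 0 higher (0.444% of genes) and 5 lower (0.175% of genes) at an unadjusted edgeR p under 0.05.

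**Figure D4:**
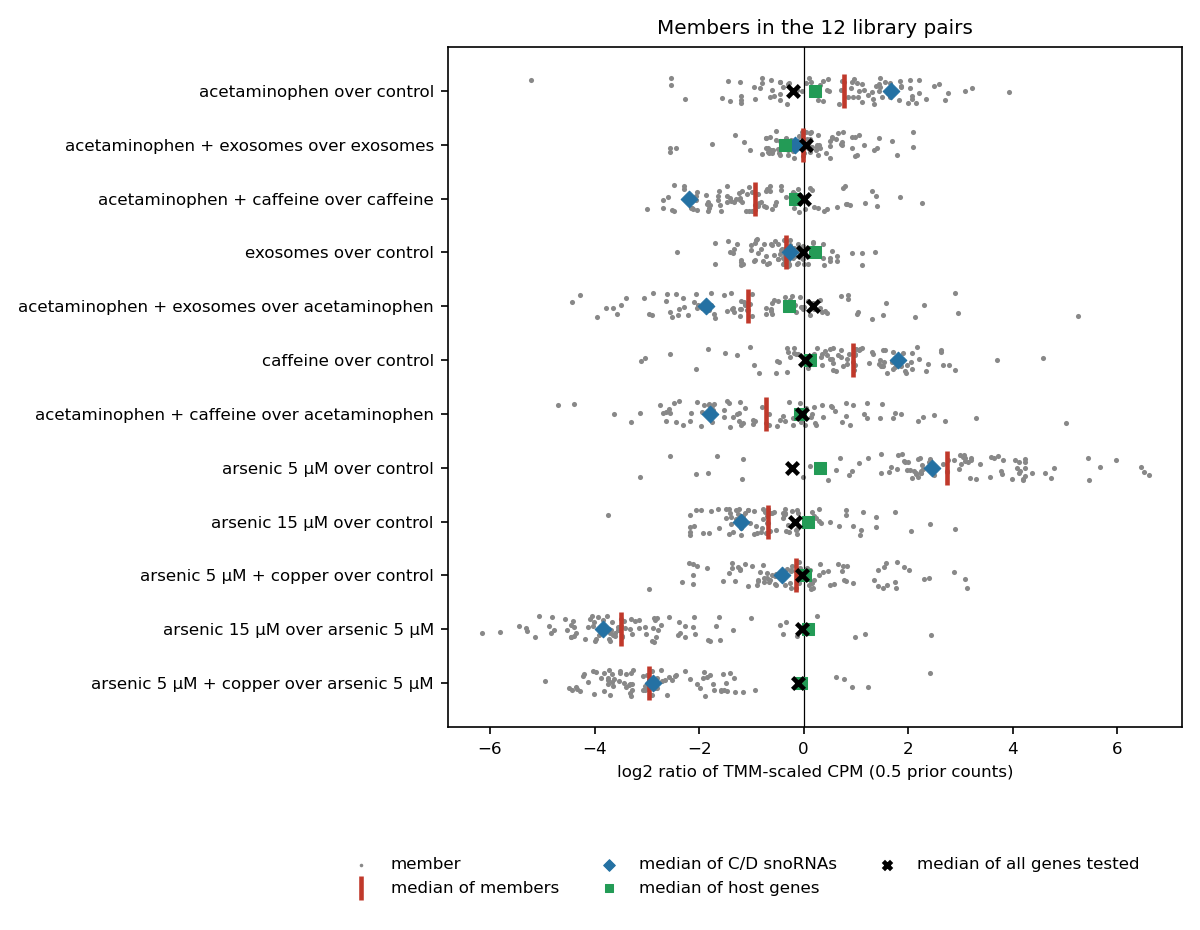
Log2 ratio of TMM-scaled CPM for the 91 tested members (grey points) in the 12 library pairs, with the medians of members, of C/D snoRNAs, of host genes and of all genes tested. Members lie to the right of 0 for arsenic 5 µM over control (median 2.74) and to the left in both pairs set against arsenic 5 µM (medians -3.49 and -2.95), while host medians lie between -0.35 and 0.31.

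**Figure D5:**
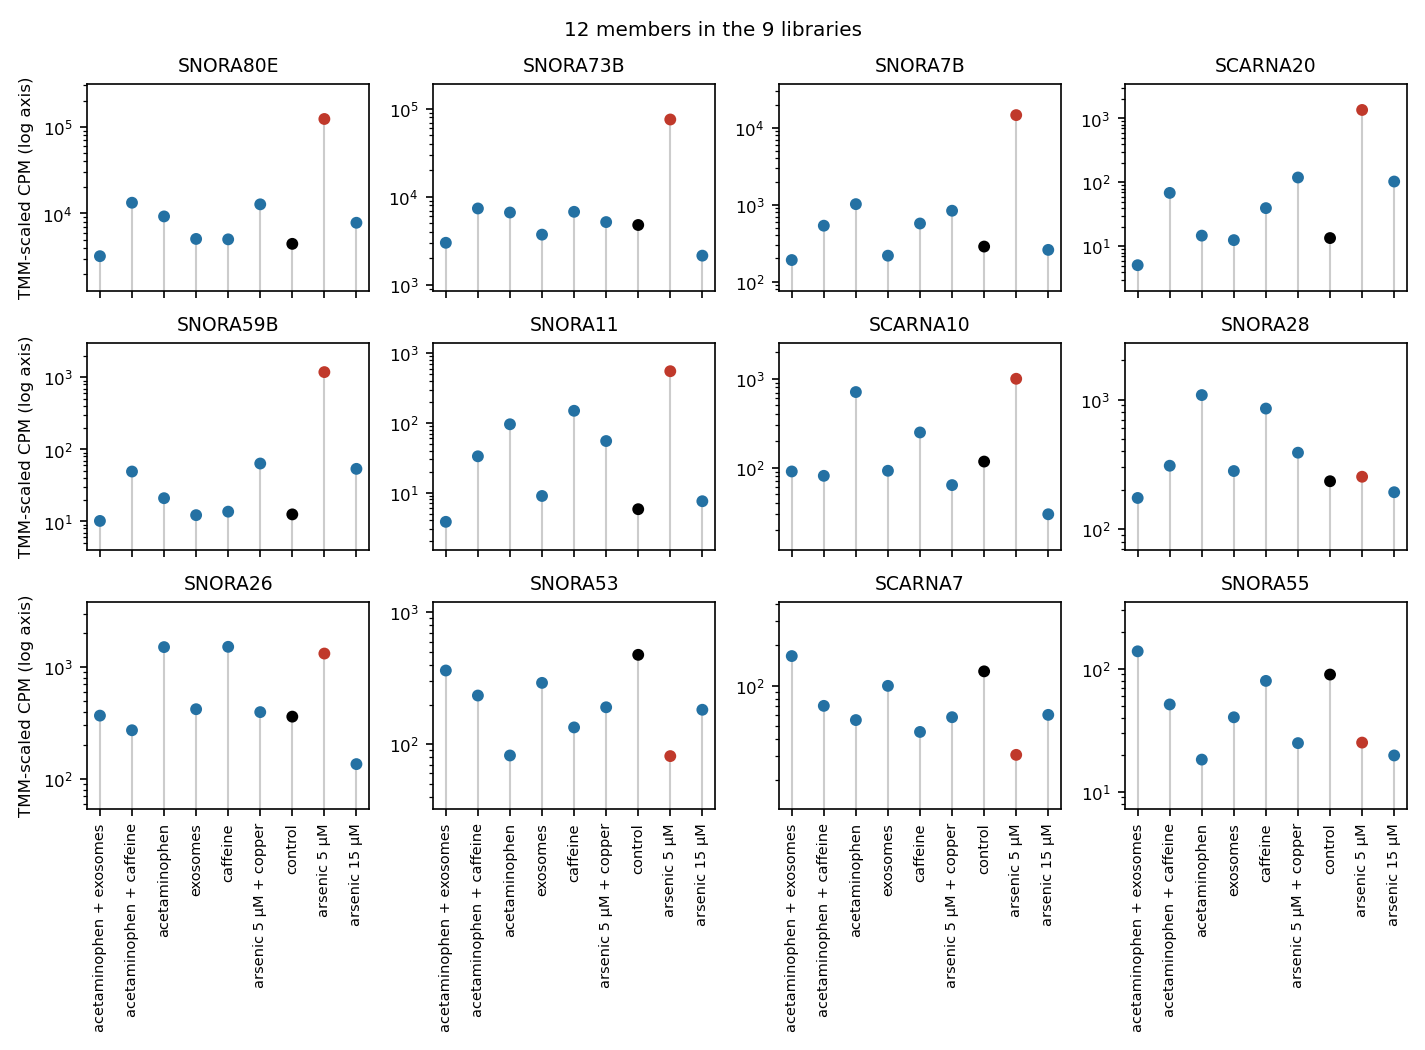
Level (TMM-scaled CPM, log axis) of 12 members in each of the 9 libraries, with the control in black and arsenic 5 µM in red. SNORA80E to SCARNA10 peak with arsenic at 5 µM, SNORA26 and SNORA28 with acetaminophen or caffeine, and SNORA53, SCARNA7 and SNORA55 are below the control there.

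Among the protein partners of these RNAs, DKC1, the pseudouridine synthase of the complex, had 57.2 CPM with acetaminophen and exosomes, 23.7 with acetaminophen and caffeine, 126 with acetaminophen, 159 with exosomes, 51.1 with caffeine, 73.1 with arsenic and copper, 158 in the control, 101 with arsenic at 5 µM and 61.0 with arsenic at 15 µM. The summed level of the 4 core proteins was 135 CPM with arsenic at 5 µM and 279 CPM in the control, and 0 of the 4 were at least 2-fold higher (16.4% of genes) and 2 lower (15.0% of genes). edgeR called 0 of the 4 core proteins, 0 of the 7 assembly and trafficking factors such as WRAP53, which carries these RNAs to Cajal bodies, and 0 of the 16 Cajal body and snRNP assembly factors such as COIL in any of the 8 terms. At an unadjusted edgeR p under 0.05, 1 core protein was lower in each of the acetaminophen (3.01% of genes), caffeine (2.68%) and arsenic (3.34%) terms. At that p 1 assembly factor was lower for acetaminophen (3.01% of genes). In the Cajal body list 1 gene was higher for arsenic (5.82% of genes) and 1 was higher for copper (1.02% of genes). For arsenic at 15 µM 2 were higher (5.43% of genes) and 2 lower (4.69% of genes). TERC, the telomerase RNA, is an H/ACA RNA outside the naming rule and has its own promoter. It had 59.8 CPM with acetaminophen and exosomes, 131 with acetaminophen and caffeine, 8.42 with acetaminophen, 57.6 with exosomes, 153 with caffeine, 83.5 with arsenic and copper, 113 in the control, 90.2 with arsenic at 5 µM and 71.4 with arsenic at 15 µM. It was lowest with acetaminophen and stood close to the control with arsenic at 5 µM, where most members peaked. Across members, the arsenic 5 µM to control log2 ratio had a Pearson correlation of -0.07 with RNA length and 0.23 with GC content (90 members of the same libraries).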

How the data were processed

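Total RNA of 9 HuH-7 cultures was isolated with mirVana, depleted of ribosomal RNA with RiboMinus and sequenced on an Ion Torrent Proton, per the labels. The deposited values are raw counts of reads, 1 per Ensembl identifier and library. The submitters' processing notes name TopHat2 2.0.13, HTSeq 0.6.1 and the build GRCh37. Whether counting used strand, which annotation it used and how long cells were exposed is not given in the sources used here. HTSeq summary lines, 42.3% to 70.3% of reads, were left out of library sizes.

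Members and lists were chosen with earlier results of these data known. Symbols, hosts, types and sequences came from gene name tables, RefSeq and GENCODE 29 (GRCh38), which gave 52526 of 63677 identifiers a symbol; no coordinates were converted. A sequence was found for 91 of 92 members (none for SCARNA9). A relative with at least 90% identity exists for 31 members and 12 lie under a gene of the other strand, so their reads may be split or shared.

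The count filter asked for 1 CPM or more in 2 or more libraries. It left 18237 genes, 91 members among them (all but SNORA63C), which were scaled by TMM. edgeR 4.0.16 (R 4.3.3) fitted quasi-likelihood models with terms for acetaminophen, exosomes, caffeine and arsenic, and 4 models with 1 extra term each; a call needs an adjusted p (Benjamini-Hochberg over all genes) below 0.05. The SE is the absolute log2 fold divided by the square root of F. For 12 library pairs, ratios of CPM carry exact conditional binomial 95% intervals; members counted as apart differed at least 2-fold (0.5 prior counts) with an interval excluding 1. Shares carry exact Clopper-Pearson intervals. PCR reads without molecular tags are not independent molecules. Scripts ran in Python 3.11.15. The edgeR step was run on simulated data with purely additive effects and a dispersion below the 0.283 of the additive fit here. That run cannot show how the test behaves on these unreplicated libraries.

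Named members were the 10 of highest mean level, the 2 of lowest p per term and direction, the highest and lowest of each pair by interval bound, and a list by role; a part of these is named, and SNORA28, SNORA31B, SNORA80A, SNORA80C, SNORA14B and other members of shared hosts or families were added after their values were seen. Alternatives were DESeq2 1.42.0, DESeq2 size factors, protein-coding scaling, no filter, each library left out, both libraries rich in snoRNA left out, the 6 libraries without arsenic, fold alone, members without close relatives (chosen after seeing the data) and shares per 100 protein-coding counts.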

Additional observations from a re-analysis of the deposited data

Results flagged for a closer look

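The 15 members called lower with arsenic at 15 µM than in the other arsenic libraries, by a test of that difference itself, had log2 values of -5.32 (SNORA11), -4.40 (SNORA72), -4.57 (SNORA50B), -4.49 (SNORA9B), -3.93 (SNORA80D), -3.94 (SCARNA1), -3.87 (SNORA58), -4.16 (SCARNA10), -3.59 (SNORA19), -3.98 (SNORA54), -3.89 (SNORA22), -3.53 (SNORA11F), -3.54 (SNORA59B), -3.72 (SNORA74D) and -3.55 (SCARNA13). The term rests on 1 library at 15 µM, and its reference holds the high arsenic 5 µM library. SNORA11 was called under 12 of 13 alternatives and the others under 4 to 9 of them. SNORA19 had 34.1 CPM with arsenic at 15 µM, 34.9 with arsenic and copper and 786 with arsenic at 5 µM. SNORA11 had 7.53, 54.9 and 550 CPM in the same order, so not every called member was clearly below arsenic with copper.

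Reads left unassigned because they lay in more than 1 gene are outside the gene counts and made up 9.25% of reads with acetaminophen, 5.74% with caffeine, 3.70% with acetaminophen and caffeine, 10.2% with arsenic at 5 µM and 4.16% with arsenic and copper, each above the 3.36% of the control. The arsenic 5 µM and acetaminophen libraries, with the largest shares, were also those with the largest shares of H/ACA and C/D snoRNA counts. What these reads hold was not tested.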

How the results depend on the processing

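No paired analysis was possible because the labels give no replicate numbers and each condition has 1 library. Leaving out each library in turn gave 0 called members for acetaminophen, exosomes and both interaction terms, 0 to 3 for caffeine, 0 to 9 for arsenic, 0 to 51 for arsenic at 15 µM and 0 to 8 for copper. The arsenic direction turned without the arsenic 5 µM library, where 9 members were called, 3 higher and 6 lower. Shares of genes beside the largest of these counts are given above. Arsenic calls numbered 4 with DESeq2 (170 of 18237 genes) and 0 with DESeq2 size factors (24 genes). They numbered 1 with protein-coding scaling (45 genes) and 5 with no filter (269 of 36993 genes). Arsenic 15 µM calls numbered 4 with DESeq2 (96 genes) and 7 with DESeq2 size factors (166 genes). Without both the acetaminophen and arsenic 5 µM libraries, calls numbered 1 for caffeine (72 of 17873 genes) and 0 for arsenic (100 genes). The terms for arsenic 15 µM and copper are then 1 contrast with its sign turned. For arsenic 15 µM its median log2 fold was -0.61 over members and 0 over all genes. The 6 libraries without arsenic gave 4 for caffeine (292 of 17393 genes). The causes were not tested.

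Members 2-fold apart moved under 4 settings. Shares of all genes were not counted for DESeq2 size factors, protein-coding scaling or fold alone. Those counts show only how the members' own counts moved, not how members compare with other genes. The setting of members without a close relative keeps the main rule, so the shares of genes given above apply to it. With DESeq2 size factors there were 7 higher for acetaminophen with exosomes over exosomes and 11 lower for exosomes over control, and with protein-coding scaling 7 higher in the first of these. By fold alone there were 10 higher and 7 lower for acetaminophen with exosomes over exosomes, 3 higher and 14 lower for exosomes over control, 8 lower for caffeine over control and 9 higher for arsenic 15 µM over control. With the 61 members without a close relative, fewer by construction, the counts were 23 lower for acetaminophen with caffeine over caffeine, 27 lower for acetaminophen with exosomes over acetaminophen, 22 higher for caffeine over control, 21 lower for acetaminophen with caffeine over acetaminophen, 48 higher for arsenic 5 µM over control, and 51 and 52 lower for arsenic 15 µM and arsenic with copper over arsenic 5 µM. Members per 100 protein-coding counts were 1.99 with acetaminophen and exosomes, 3.69 with acetaminophen and caffeine, 4.63 with acetaminophen, 2.05 with exosomes, 3.74 with caffeine, 3.20 with arsenic and copper, 2.43 in the control, 34.8 with arsenic at 5 µM and 1.64 with arsenic at 15 µM. The other 233 values over all members stayed within their limits. At control depth 3 counts equal 2.89 CPM, so ratios of members near that level are open to counting error.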

Other observations

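Pseudouridine synthases that work without a guide RNA, such as PUS1, PUS7 and TRUB1, had 3 of 12 members at least 2-fold higher (16.4% of all genes tested) and 3 lower (15.0% of all genes) with arsenic at 5 µM than in the control, with a summed level of 416 CPM with arsenic at 5 µM and 330 CPM in the control. Factors listed for snoRNA end processing, such as PARN, EXOSC10 and DIS3, had 1 of 8 higher (16.4% of all genes) and 2 lower (15.0%). Their summed level was 493 CPM with arsenic at 5 µM and 515 CPM in the control. The C/D core proteins, FBL and NOP58 among them, had 0 of 4 higher (16.4% of all genes) and 3 lower (15.0%). They summed to 235 CPM with arsenic at 5 µM and 741 CPM in the control. edgeR called 0 genes of these 3 lists in any of the 8 terms. At an unadjusted edgeR p under 0.05 the most in 1 term was 4 of 12 guide-free synthases lower for arsenic at 15 µM (4.69% of genes). SNORA14A and SNORA14B, relatives that share 91.1% of their positions and lie in different hosts, were 3.48 times (2.48 to 5.01) and 14.0 times (11.6 to 17.04) as high with arsenic at 5 µM as in the control.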
